A study of Mus musculus with 12 samples.

Results

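Receptors of the IL-1 and IL-17 cytokine families, together with the IL-1 receptor antagonist, were followed in mouse Th9 cells, the CD4+ T helper subset that makes IL-9. The 10 genes were *Il1rn*, *Il1r1*, *Il1r2*, *Il1rap*, *Il1rl1*, *Il18r1*, *Il18rap*, *Il17ra*, *Il17rb*, and *Il17re*, found by symbol among the 32051 genes measured by RNA-seq. They were put together because *Il1rn* was higher and *Il17rb* lower with EpA than with DMSO, so they were chosen by the values of that comparison, which are given for these genes as a description with no test. Naive CD4+ T cells were isolated with a MojoSort kit from mouse spleen. The paper's methods name C57BL/6J or CD45.1+ OT-II donors without saying which were used for RNA-seq. The cells were stimulated through CD3 and CD28 and polarized with TGF-β (1 ng/mL) and IL-4 (10 ng/mL) while IL-12 and IFN-γ were blocked. RNA was taken on day 4. The 4 groups of 3 libraries differed in the compound added. They received DMSO (the vehicle), 10 μM EpA (endomelipeptide A, a cyclic peptide), 5 μM fatostatin (an inhibitor of the lipid synthesis regulator SREBP), or EpA and fatostatin together. All groups had the same cytokines and antibodies. No genetic change is described for any of them, apart from the transgene of OT-II mice if these were used. The cells were a culture of a whole CD4+ population, so fewer cells expressing a gene and less RNA of it per cell cannot be told apart, and the study calls the 12 samples independent without stating whether they came from separate mice or cultures, so that the p-values measure the spread between these libraries.

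IL-1, IL-18, IL-33, and IL-36 signal by bringing a ligand-binding receptor chain together with an accessory chain, which recruits MyD88 and IRAK kinases and activates NF-κB. IL-33 and IL-25 are alarmins, released or secreted at barrier tissues, and on type 2 T cells they support the production of IL-5, IL-9, and IL-13. IL-33 is read by ST2 (*Il1rl1*) with the shared accessory chain (*Il1rap*), and IL-25 by IL-17RB (*Il17rb*) with IL-17RA (*Il17ra*). IL-1 signals through *Il1r1* and *Il1rap*, is held off by the decoy receptor *Il1r2*, and is competed away from its receptor by the antagonist that *Il1rn* encodes.

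Levels are in FPKM, the reads of a gene per kilobase of its exons and scaled to the reads of the library. Reads on genes recovered from these values ranged from 36019740 to 43656682 per library, a factor of 1.21, and 1 read on a gene of 1 kb was worth 0.0225 to 0.0273 FPKM. Differences were tested with limma on log2(FPKM + 0.1) over the 13733 genes averaging at least 0.1 FPKM, and a gene passed at a Benjamini-Hochberg adjusted p below 0.05. *Il17re*, with a mean of 0.0954 FPKM, lay under that minimum, so 9 of the 10 genes were tested. Markers of T cells summed to between 480.2 and 566.9 FPKM in every library, and each of the 6 was present in all 4 groups. The sums were lower with EpA without overlap, at 558.1 to 566.9 FPKM with DMSO and 494.6 to 500.0 with EpA. They were 546.5 to 562.8 FPKM with fatostatin and 480.2 to 484.6 with both compounds. The 6 markers of macrophages and monocytes summed to 1.24 to 2.73 FPKM, the 5 of neutrophils to 0.376 to 1.13 FPKM, and the 5 of mast cells and basophils to 0.752 to 2.02 FPKM. Higher sums were those of the 4 B cell markers, 5.19 to 8.62 FPKM, and of the 2 CD8 T cell markers, 6.98 to 10.2 FPKM. Most of these sums came from *Cd79b* and *Cd8b1*. *Fcgr1* in the EpA group, *Mpo* in the DMSO group, and *Ly6g* in the other 3 groups were at 0.

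In Th9 cells without EpA, the IL-25 receptor chains were by far the most abundant of these transcripts per length. *Il17ra* had 7.22 ± 0.119 FPKM (SD, n = 3) with DMSO and *Il17rb* 5.04 ± 0.224 FPKM, followed by *Il1r2*, *Il1rl1*, *Il1rap*, and *Il1rn* between 0.604 and 0.794 FPKM, whose library values overlapped from each gene to the next. *Il18r1* had 0.434 FPKM and *Il1r1* 0.398 FPKM, which overlapped with each other, *Il18rap* 0.241 FPKM, and *Il17re* 0.0935 FPKM. With EpA the order changed at the top. *Il1rn* stood second at 2.63 FPKM and *Il17rb* next at 1.62 FPKM, with no overlap between them, and the same order held with EpA and fatostatin together at 3.63 and 2.03 FPKM.

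**Figure D1:**
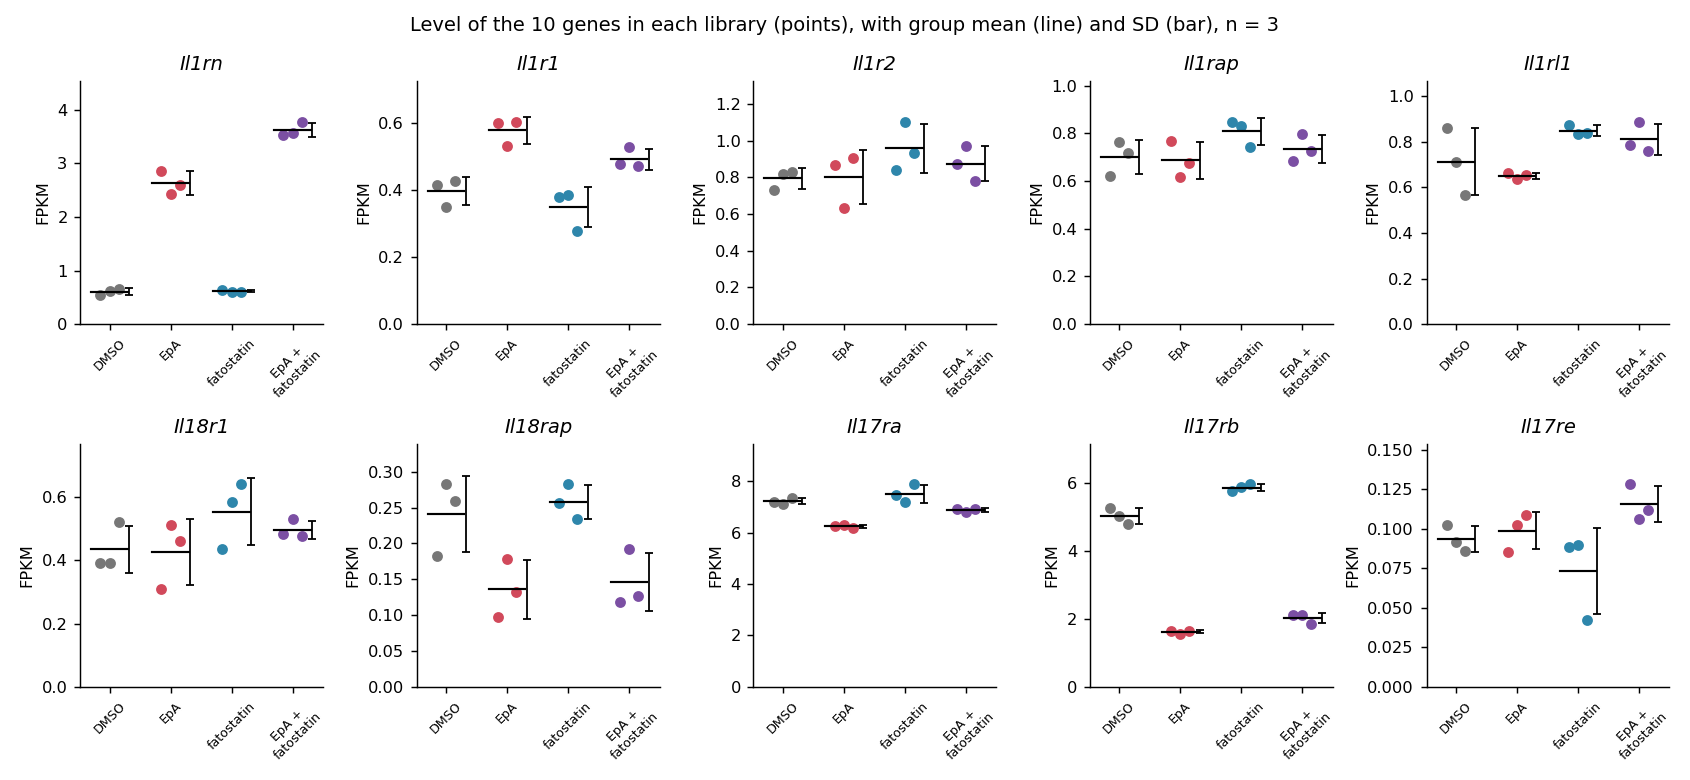
FPKM of the 10 genes (1 panel each, axes from 0) in the 3 libraries of each group, with points for libraries, lines for group means, and bars for SD. *Il1rn* is high and *Il17rb* low in the 6 libraries with EpA, and *Il1rap* and *Il18r1* overlap between all groups.

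*Il1rn* (ENSMUSG00000026981, GRCm38 chr2:24336853-24351494, + strand) encodes the secreted antagonist of the IL-1 receptor, with intracellular forms from alternative first exons. RefSeq promoter windows, 250 bases before to 50 after a transcript start on GRCm38.p6, were at hand for 9 of the 10 genes, and that of *Il17rb* and 2 of the 3 of *Il1rn* are shown because these genes changed most and in opposite directions. The third *Il1rn* window, chr2:24345121-24345420, overlaps the second and holds the same NFAT core. Capitals mark matches on either strand to 7 motifs that were searched. The AP-1 motif was spelled TGANTCA. The STAT motif was spelled TTCNNNGAA and the NFAT core TGGAAA. The GATA factor motif was spelled AGATAA. The core of the xenobiotic response element was spelled GCGTG. The sterol response element was spelled TCACNCCAC, and a kappaB motif was searched as well.
Il1rn, first start, chr2:24336610-24336909, + strand: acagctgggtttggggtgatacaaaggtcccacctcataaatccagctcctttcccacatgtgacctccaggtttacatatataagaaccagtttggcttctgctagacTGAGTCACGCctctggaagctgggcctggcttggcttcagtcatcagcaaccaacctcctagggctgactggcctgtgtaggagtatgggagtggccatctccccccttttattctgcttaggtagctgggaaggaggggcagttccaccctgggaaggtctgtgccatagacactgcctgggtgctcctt
Il1rn, second start, chr2:24345041-24345340, + strand: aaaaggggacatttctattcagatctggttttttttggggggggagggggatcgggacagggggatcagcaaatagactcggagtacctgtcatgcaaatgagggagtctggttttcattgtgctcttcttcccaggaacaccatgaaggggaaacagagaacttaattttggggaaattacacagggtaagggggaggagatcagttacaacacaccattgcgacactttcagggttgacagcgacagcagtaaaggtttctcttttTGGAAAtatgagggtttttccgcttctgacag
Il17rb, chr14:30008847-30009146, - strand: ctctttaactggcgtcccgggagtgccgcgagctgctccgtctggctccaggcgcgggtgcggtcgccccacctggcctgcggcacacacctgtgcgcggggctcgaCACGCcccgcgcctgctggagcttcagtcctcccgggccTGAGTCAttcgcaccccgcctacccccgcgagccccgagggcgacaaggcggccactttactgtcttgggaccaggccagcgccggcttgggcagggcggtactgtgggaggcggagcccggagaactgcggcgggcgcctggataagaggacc
The window of the first *Il1rn* start held the AP-1 letters TGAGTCA from 141 bases before the start, sharing bases with a xenobiotic response core on the opposite strand. The second start had an NFAT core 18 bases after it. The single *Il17rb* window held the same AP-1 letters 104 bases before its start and a separate xenobiotic response core 143 bases before it. An AP-1 match was thus in 2 of the 15 windows of these genes, and in 7.81% of all 32851 mouse promoters. The other *Il1rn* windows had none. The xenobiotic response core was common, in 7 of the 15 windows and in 32.4% of all promoters. The NFAT core was in 5 of the 15 (21.4% of all promoters), the STAT motif in 2 (8.3%), the GATA factor motif in 2 (11.2%), and the kappaB motif in 1 (4.51%). As for *Il1rn*, overlapping windows of *Il18r1* held the same NFAT core, so these sites were counted more than once. No window of these genes had the sterol response letters, which 1.24% of all promoters held. The *Il17rb* window had 72% GC and 32 CpG, that of the first *Il1rn* start 54% GC and 1 CpG, and the median promoter 52.7% and 7. A match of letters describes the sequence only and is not evidence of a bound site.

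*Il1rn* had 0.538, 0.615, and 0.661 FPKM in the 3 DMSO libraries and 2.87, 2.43, and 2.59 FPKM in the 3 EpA libraries, from 109 to 159 reads and from 537 to 631 reads. Every EpA library was above every DMSO library, by 4.35-fold in the group means, a log2 fold change of 1.96 (SE 0.0860). With fatostatin alone the values were 0.631, 0.603, and 0.607 FPKM, and with both compounds 3.53, 3.57, and 3.78 FPKM. These 6 libraries, none of which belongs to the comparison of EpA with DMSO, also did not overlap, although earlier results of all groups were known when the genes were chosen. *Il1rn* rose 5.92-fold there, which is 2.39 ± 0.0860 on the log2 scale (SE, limma adjusted p = 8.13e-09), and it passed under all 22 alternatives tried. Macrophages and neutrophils also make *Il1rn*. The summed markers of macrophages and monocytes were 1.25 to 1.40 FPKM with DMSO, 1.24 to 1.73 with EpA, 1.59 to 2.34 with fatostatin, and 1.75 to 2.73 with both compounds, so that the sums with and without EpA overlapped. *Cd68* made up most of this sum, with 1.21 FPKM with DMSO, and only 1 or 2 of the 6 markers reached the minimum level. *Lyz2* had 0 to 4 reads per library with DMSO and 6 to 12 with EpA, and 8 to 13 with fatostatin and 10 to 14 with both compounds, and its part in the *Il1rn* values was not tested. The cells were isolated as naive CD4+ cells, and the paper's methods give no purity after isolation. The reads of *Il1rn* could not be split between the secreted and the intracellular forms. A pseudocount of 1 in place of 0.1 lowered the log2 fold change between EpA and DMSO to 1.18, since it compresses a gene at this level.

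*Il17rb* (ENSMUSG00000015966, chr14:29996135-30008896, - strand), the ligand-binding chain for IL-25, had 5.26, 5.04, and 4.81 FPKM with DMSO and 1.65, 1.57, and 1.64 FPKM with EpA. The EpA libraries were all far below the DMSO libraries, 3.11-fold lower in the group means, a log2 fold change of -1.58 (SE 0.0578). With fatostatin the values were 5.78, 5.88, and 5.97 FPKM, and with both compounds 2.11, 2.12, and 1.86 FPKM. *Il17rb* fell 2.90-fold between these groups, a log2 difference of -1.49 ± 0.0578 (SE, limma adjusted p = 1.55e-08), again under all 22 alternatives. The gene shares 141 exon bases with *Actr8*, a chromatin remodeling subunit on the opposite strand. *Actr8* had 4.74 ± 0.232, 4.71 ± 0.0464, 4.76 ± 0.0139, and 4.46 ± 0.172 FPKM (SD, n = 3) with DMSO, EpA, fatostatin, and both compounds, and it did not pass between EpA and DMSO (log2 fold change -0.01, limma adjusted p = 0.931) or between both compounds and fatostatin (-0.09, limma adjusted p = 0.137).

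Between both compounds and fatostatin, 4 of the 9 tested genes passed, against 29.5% of all genes tested, 2 of them higher (16.2% of all genes) and 2 lower (13.3%). *Il1rn* and *Il17rb* were the only ones that also changed by at least 1.5-fold, as 1.89% of all genes did upward and 1.86% downward. Values did not overlap for 2 genes that were higher (22.5% of all genes) and 3 that were lower (19%), and the median log2 fold change of the 9 was -0.12, beside 0.01 over all genes tested. The other genes that passed were *Il17ra* and *Il1r1*, both by small amounts.

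**Figure D2:**
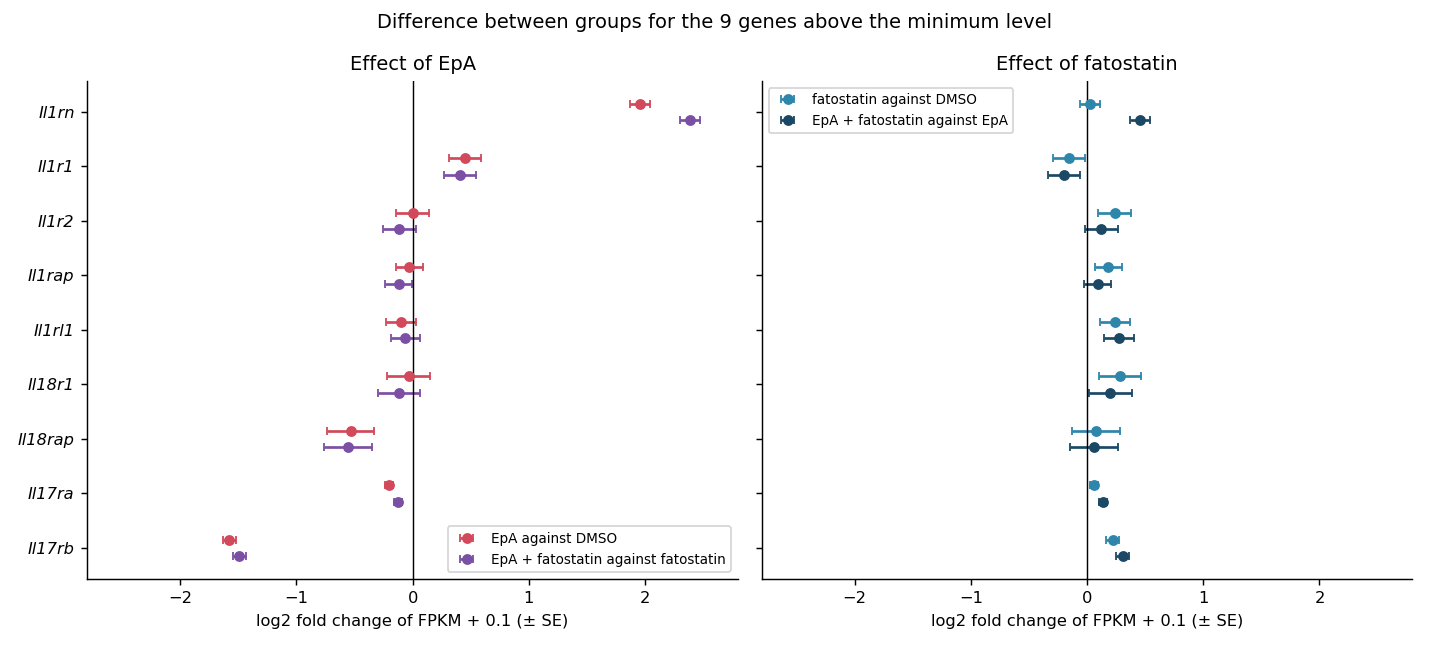
Log2 fold change of FPKM + 0.1 (x axis, points with bars of ± SE) for the 9 genes above the minimum level, for EpA without and with fatostatin (left) and for fatostatin without and with EpA (right). *Il1rn* lies at 1.96 and 2.39 and *Il17rb* at -1.58 and -1.49 on the left, and the other 7 genes lie between -0.55 and 0.45 there.

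*Il17ra* (ENSMUSG00000002897, chr6:120463247-120487559), the chain shared by receptors for IL-17A, IL-17F, IL-17C, and IL-25, was lower in the same direction as *Il17rb* but by far less. It had 7.21, 7.10, and 7.34 FPKM with DMSO and 6.24, 6.30, and 6.19 FPKM with EpA, with no overlap and a log2 fold change of -0.21 (SE 0.0358). With fatostatin it had 7.47, 7.19, and 7.88 FPKM and with both compounds 6.92, 6.80, and 6.93 FPKM, again without overlap. It fell by 0.12 on the log2 scale (SE 0.0358, limma adjusted p = 0.0225), and it no longer passed without fatostatin replicate 3 (limma adjusted p = 0.0871), without replicate 2 of both compounds (limma adjusted p = 0.0698), or in a fit of the 6 libraries alone (limma adjusted p = 0.0835). Both chains of the IL-25 receptor were thus lower with EpA and unequally so. The ratio of *Il17rb* to *Il17ra* within a library was 0.656 to 0.730 with DMSO and 0.249 to 0.266 with EpA, and 0.758 to 0.818 with fatostatin and 0.269 to 0.311 with both compounds. *Il17re* (ENSMUSG00000043088, chr6:113458484-113470758), the chain that binds IL-17C, was barely detected, with 10 to 32 reads per library. Its values were 0.0862 to 0.102 FPKM with DMSO, 0.0857 to 0.109 with EpA, 0.0421 to 0.0898 with fatostatin, and 0.107 to 0.128 with both compounds. The last 2 groups did not overlap, and no test was made.

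**Figure D3:**
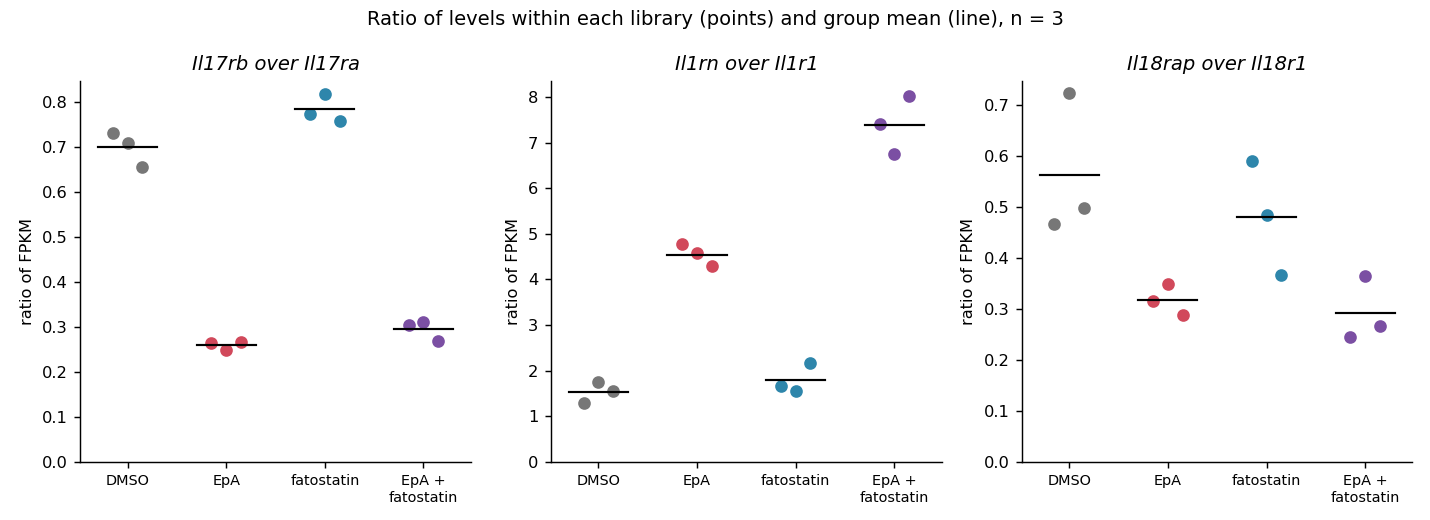
Ratio of FPKM between a pair of genes within each library (y axis from 0), with points for libraries and lines for group means, n = 3. *Il17rb* over *Il17ra* is at most 0.311 in the libraries with EpA and at least 0.656 in those without, *Il1rn* over *Il1r1* is at least 4.29 with EpA and at most 2.17 without, and *Il18rap* over *Il18r1* is at most 0.363 with EpA and at least 0.365 without.

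Neither chain of the IL-33 receptor passed. *Il1rl1* (ENSMUSG00000026069, chr1:40429570-40465415), which encodes ST2 in its membrane and soluble forms, had 0.860, 0.714, and 0.567 FPKM with DMSO and 0.664, 0.637, and 0.654 FPKM with EpA, and the EpA values fell inside the DMSO range. With fatostatin it had 0.876, 0.833, and 0.842 FPKM and with both compounds 0.785, 0.890, and 0.761 FPKM, which overlapped, with a log2 fold change of -0.06 (95% interval -0.34 to 0.22, limma adjusted p = 0.769). The interval leaves room for a change in either direction that is smaller than that of *Il17rb*. *Il1rap* (ENSMUSG00000022514, chr16:26581704-26730117), the accessory chain for IL-1, IL-33, and IL-36, ranged from 0.616 to 0.849 FPKM over the 12 libraries and overlapped in every comparison. Its log2 fold change between both compounds and fatostatin was -0.12 (95% interval -0.37 to 0.13, limma adjusted p = 0.490). An antisense transcript, *Gm20319*, shares 552 of its exon bases and was not analysed here. Per length, *Il1rl1* and *Il1rap* were close to each other, with a mean ratio of 1.04, 0.956, 1.06, and 1.10 in the DMSO, EpA, fatostatin, and combined groups.

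*Il1r1* (ENSMUSG00000026072, chr1:40225080-40317257), the signaling receptor for IL-1, was higher with EpA. It had 0.416, 0.350, and 0.427 FPKM with DMSO (91 to 118 reads) and 0.601, 0.532, and 0.605 FPKM with EpA (135 to 163 reads), with no overlap, 1.46-fold in the group means and a log2 fold change of 0.45 (SE 0.137). With fatostatin it had 0.379, 0.386, and 0.279 FPKM and with both compounds 0.477, 0.529, and 0.472 FPKM, without overlap. It rose 1.41-fold there, or by 0.41 ± 0.137 on the log2 scale (SE, limma adjusted p = 0.0425), but close to the threshold. It did not pass in 13 of 21 alternatives, among them each fit that left out 1 library other than DMSO replicate 2 or fatostatin replicate 2, and without fatostatin replicate 3, its lowest library, it was 0.29 (limma adjusted p = 0.149). With the replicate numbers as a block the limma adjusted p was 0.0666. The 5 Th17 markers, of a subset that carries this receptor and with *Il17f* among them, summed to 4.83 to 5.85 FPKM with DMSO and 7.76 to 8.43 with EpA, and to 5.61 to 5.86 with fatostatin and 8.26 to 10.2 with both compounds, and their part in the *Il1r1* values was not tested. The decoy receptor *Il1r2* (ENSMUSG00000026073, chr1:40074079-40125231) did not pass, with 0.794, 0.802, 0.958, and 0.875 FPKM in the DMSO, EpA, fatostatin, and combined groups and a log2 fold change of -0.11 between the last 2 (95% interval -0.43 to 0.20, limma adjusted p = 0.608). The ratio of the antagonist transcript to that of the receptor was higher in every library with EpA. *Il1rn* over *Il1r1* was 1.29 to 1.76 with DMSO and 4.29 to 4.77 with EpA, and 1.56 to 2.17 with fatostatin and 6.75 to 8.02 with both compounds.

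For the IL-18 receptor, the values of the 2 chains differed. *Il18rap* (ENSMUSG00000026068, chr1:40515362-40551705), the accessory chain, had 0.182, 0.283, and 0.259 FPKM with DMSO (45 to 78 reads) and 0.0968, 0.178, and 0.133 FPKM with EpA (26 to 48 reads), lower without overlap, with a log2 fold change of -0.53 (SE 0.206). With fatostatin it had 0.257, 0.282, and 0.234 FPKM and with both compounds 0.118, 0.192, and 0.126 FPKM, also without overlap. The log2 difference of -0.55 ± 0.206 (SE, limma adjusted p = 0.0660) did not pass. It passed with the replicate numbers as a block (limma adjusted p = 0.0458), without the trend of spread with level (limma adjusted p = 0.0313), without replicate 2 of both compounds (limma adjusted p = 0.0485), and with voom on the recovered reads, where the log2 fold change was -0.85 (limma adjusted p = 0.0142). The ligand-binding chain *Il18r1* (ENSMUSG00000026070, chr1:40465552-40500854) ranged from 0.308 to 0.641 FPKM over all libraries with overlap in each comparison, and between both compounds and fatostatin its log2 fold change was -0.12 (95% interval -0.52 to 0.28, limma adjusted p = 0.686). The ratio of *Il18rap* to *Il18r1* was 0.465 to 0.723 with DMSO and 0.288 to 0.349 with EpA, and 0.365 to 0.591 with fatostatin and 0.245 to 0.363 with both compounds. Summed markers of NK cells and Th1 cells, other lymphocytes that carry this receptor, were lower in the libraries with EpA. The 3 NK cell markers summed to 4.69 to 5.05 FPKM with DMSO and 2.52 to 3.12 with EpA, and to 3.37 to 3.86 with fatostatin and 1.75 to 2.30 with both compounds. Nearly all of it was *Klrd1*, since *Ncr1* and *Klrb1c* had at most 4 and 8 reads per library. The group means of *Ncr1* and *Klrb1c* were not lower with EpA. The 3 Th1 markers summed to 12.9 to 13.4 FPKM and 6.37 to 7.97 in the first pair of groups, and to 14.4 to 15.4 and 6.89 to 7.48 in the second. The 2 CD8 T cell markers summed to 8.71 to 9.79 FPKM with DMSO and 7.85 to 8.57 with EpA. With fatostatin they summed to 8.55 to 10.2 FPKM and with both compounds to 6.98 to 8.60, which overlapped. *Cd8a* had 1.81, 0.802, 1.52, and 0.491 FPKM in the DMSO, EpA, fatostatin, and combined groups, and *Cd8b1* 7.60, 7.47, 7.64, and 7.25 FPKM. The part of all these markers in the *Il18rap* values was not tested.

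Of these genes, 5 lie side by side on chromosome 1, in the order *Il1r2*, *Il1r1*, *Il1rl1*, *Il18r1*, and *Il18rap*, all on the + strand within 477.6 kb, with *Il1rl2*, the IL-36 receptor, after *Il1r1*. With EpA, *Il1r1* was higher, *Il18rap* lower, and *Il1rl1* and *Il18r1*, whose gene models are only 136 bases apart, overlapped with the controls. *Il1rl2* had 0.0753 ± 0.0211 FPKM with DMSO, 0.130 ± 0.0572 with EpA, 0.102 ± 0.0250 with fatostatin, and 0.153 ± 0.00688 with both compounds (SD, n = 3), and did not pass in any comparison. Of the genes around the cluster, *Map4k4*, a kinase gene upstream of *Il1r2*, fell between both compounds and fatostatin (log2 fold change -0.12, limma adjusted p = 0.00971), as did *Rnf149*, a ubiquitin ligase gene farther off (-0.49, limma adjusted p = 4.37e-06). *Tbc1d8*, also farther off, rose with fatostatin by 0.86 against DMSO (limma adjusted p = 0.000616) and by 0.81 on top of EpA (limma adjusted p = 0.000958).

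**Figure D4:**
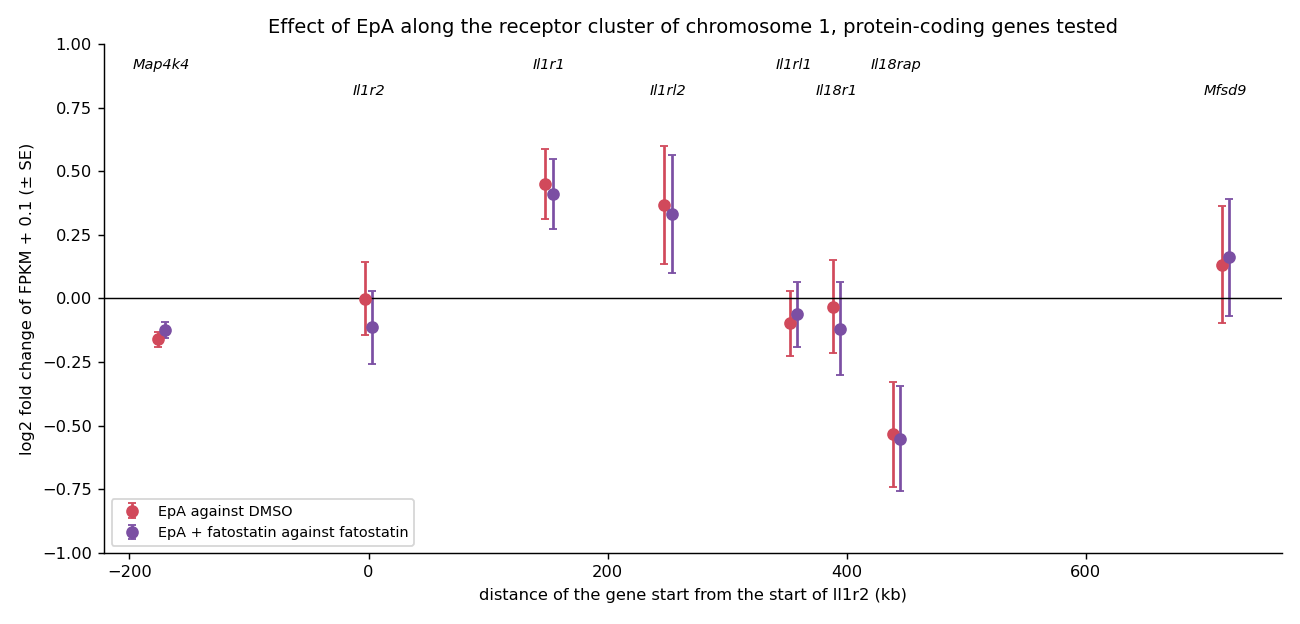
Log2 fold change of FPKM + 0.1 with EpA (y axis, ± SE), without and with fatostatin, against the distance of each gene start from the start of *Il1r2* in kb, for the tested protein-coding genes. *Il1r1* is at 0.45 and 0.41, and *Il18rap*, less than 500 kb away, at -0.53 and -0.55.

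With fatostatin alone, *Il17rb* was the gene of this set that passed. Against DMSO, with which it shares the libraries used to choose the genes, 1 of the 9 passed, where 14% of all genes did. *Il17rb* rose 1.17-fold with no overlap (log2 fold change 0.22, SE 0.0578, limma adjusted p = 0.0266), opposite to its direction with EpA. It did not pass without DMSO replicate 2 or 3 or without fatostatin replicate 1, 2, or 3 (limma adjusted p of 0.0573 to 0.103). *Il1rn* had a log2 fold change of 0.02 (95% interval -0.17 to 0.21, limma adjusted p = 0.911). The values of 8 of the 9 genes were positive, with a median of 0.18 beside 0.01 over all genes.

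On top of EpA, *Il1rn* and both IL-25 receptor chains were higher with fatostatin. In this comparison, which shares the EpA libraries, 3 of the 9 genes passed, all upward, where 9.22% of all genes passed upward and 16% in either direction. *Il1rn* rose 1.38-fold (log2 fold change 0.45, SE 0.0860, limma adjusted p = 0.00426), *Il17rb* rose 1.25-fold (0.30, SE 0.0578, limma adjusted p = 0.00417), and *Il17ra* rose 1.10-fold (0.14, SE 0.0358, limma adjusted p = 0.0216). The call for *Il17ra* was lost without EpA replicate 1 or 3 and without replicate 1 or 3 of both compounds (limma adjusted p of 0.0591 to 0.0700). *Il1rl1* was higher in all 3 libraries with both compounds than with EpA alone (1.25-fold, log2 fold change 0.28, limma adjusted p = 0.180) and *Il1r1* lower in all 3 (log2 fold change -0.20, limma adjusted p = 0.390), and neither passed. The effect of EpA on *Il1rn* was larger with fatostatin than without it by 0.43 on the log2 scale (SE 0.122), and that on *Il17rb* differed by 0.09 (SE 0.0817). These differences contain the comparison that chose the genes and are given with no test.

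Several ligands of these receptors were not detected in the same cultures. *Il33*, *Il36a*, *Il36b*, *Il36g*, *Il36rn*, *Il1f10*, and *Il17b* had 0 reads in all 12 libraries, and *Il25* had at most 2 reads. *Il1a* rose with EpA by 0.45 on the log2 scale (limma adjusted p = 0.0211), the mean ± SD of the 3 libraries being 0.521 ± 0.0763 FPKM with DMSO and 0.748 ± 0.0587 FPKM with EpA, and with fatostatin to 1.15 ± 0.150 FPKM (1.01, limma adjusted p = 0.000283). *Il17f*, a ligand of IL-17RA, rose with EpA from 0.855 ± 0.149 to 1.57 ± 0.132 FPKM (0.81, limma adjusted p = 0.00408) and fell with fatostatin to 0.552 ± 0.128 FPKM (-0.56, limma adjusted p = 0.0482). *Il18bp*, which neutralizes IL-18, fell with EpA (-0.36, limma adjusted p = 0.0424). Between both compounds and fatostatin, *Il1a* (0.33, limma adjusted p = 0.0768) and *Il18bp* (-0.07, limma adjusted p = 0.691) overlapped and did not pass, and *Il17f* rose by 0.64 (limma adjusted p = 0.0145). *Il18* fell between both compounds and fatostatin (-0.95, limma adjusted p = 0.0422) on no more than 11 reads per library, and with EpA against DMSO it did not pass (-0.47, limma adjusted p = 0.311). *Sigirr*, a receptor of the family that damps signaling, was the most abundant receptor gene of both families listed here, with 27.0, 26.5, 26.8, and 27.8 FPKM in the DMSO, EpA, fatostatin, and combined groups, and did not pass in any comparison.

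Downstream of the receptors, the adaptors and kinases showed no common direction. In a list of NF-κB and mRNA-decay genes, called feedback genes here, those that passed with EpA all rose. This list also held the NF-κB subunit genes *Nfkb1*, *Nfkb2*, *Rel*, and *Relb* and the mRNA regulators *Zc3h12a* and *Arid5a*. *Rel* had 6.16 FPKM with DMSO and 5.61 FPKM with EpA, lower without overlap, and did not pass there. Of 49 tested genes among 63 ligands, other receptors, adaptors, feedback genes, and target cytokines, 15 rose and 4 fell with EpA against DMSO, where 27.4% of all genes passed, and 19 rose and 5 fell between both compounds and fatostatin, where 29.5% did. Of 21 adaptors and kinases, 4 rose and 4 fell in the latter comparison, with a median log2 fold change of -0.01. *Traf4*, an adaptor that competes for IL-17 receptor signaling, had 12.4 ± 0.369 and 17.7 ± 0.587 FPKM and rose by 0.51 on the log2 scale (limma adjusted p = 1.33e-06), *Peli2*, a ubiquitin ligase of the IRAK complex, rose by 0.64 (limma adjusted p = 0.0170), and *Traf5* fell by 0.40 (limma adjusted p = 0.0335). With EpA against DMSO, *Traf4* rose by 0.37 (limma adjusted p = 1.50e-05), while *Tab1*, a partner of the kinase TAK1, fell by 0.29 (limma adjusted p = 0.000159) and the ubiquitin ligase gene *Peli1* by 0.23 (limma adjusted p = 0.00328). With fatostatin against DMSO, *Usp25*, a deubiquitinase gene, rose by 0.23 (limma adjusted p = 3.70e-05) and *Map3k7*, which encodes TAK1, by 0.14 (limma adjusted p = 0.00735), and on top of EpA *Irak4* fell by 0.19 (limma adjusted p = 0.0356). Of 12 feedback genes, 7 rose and 0 fell with EpA against DMSO (14.3% of all genes rose; median 0.15, beside 0.00 over all genes), and 9 rose and 0 fell between both compounds and fatostatin (16.2% of all genes rose; median 0.30, beside 0.01). *Nfkbia*, the NF-κB inhibitor IκBα, rose from 36.5 ± 1.63 to 54.1 ± 2.03 FPKM (0.56, limma adjusted p = 1.42e-06), and *Nfkb2* from 31.2 ± 0.717 to 46.1 ± 0.885 FPKM (0.56, limma adjusted p = 1.82e-07). With fatostatin, 7 of the list rose and 1 fell against DMSO, where 7.69% of all genes rose, and 8 rose and 1 fell on top of EpA, where 9.22% did, led by *Nfkbie* (0.58, limma adjusted p = 0.000158, and 0.76, limma adjusted p = 1.87e-05). *Relb* rose by 0.41 and 0.50 (limma adjusted p = 0.000854 and 0.000169) in these comparisons, *Tnfaip3*, which encodes the inhibitor A20, rose by 0.49 on top of EpA (limma adjusted p = 2.30e-05), and *Arid5a*, an mRNA-stabilizing factor, fell by 0.39 against DMSO (limma adjusted p = 1.67e-06).

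**Figure D5:**
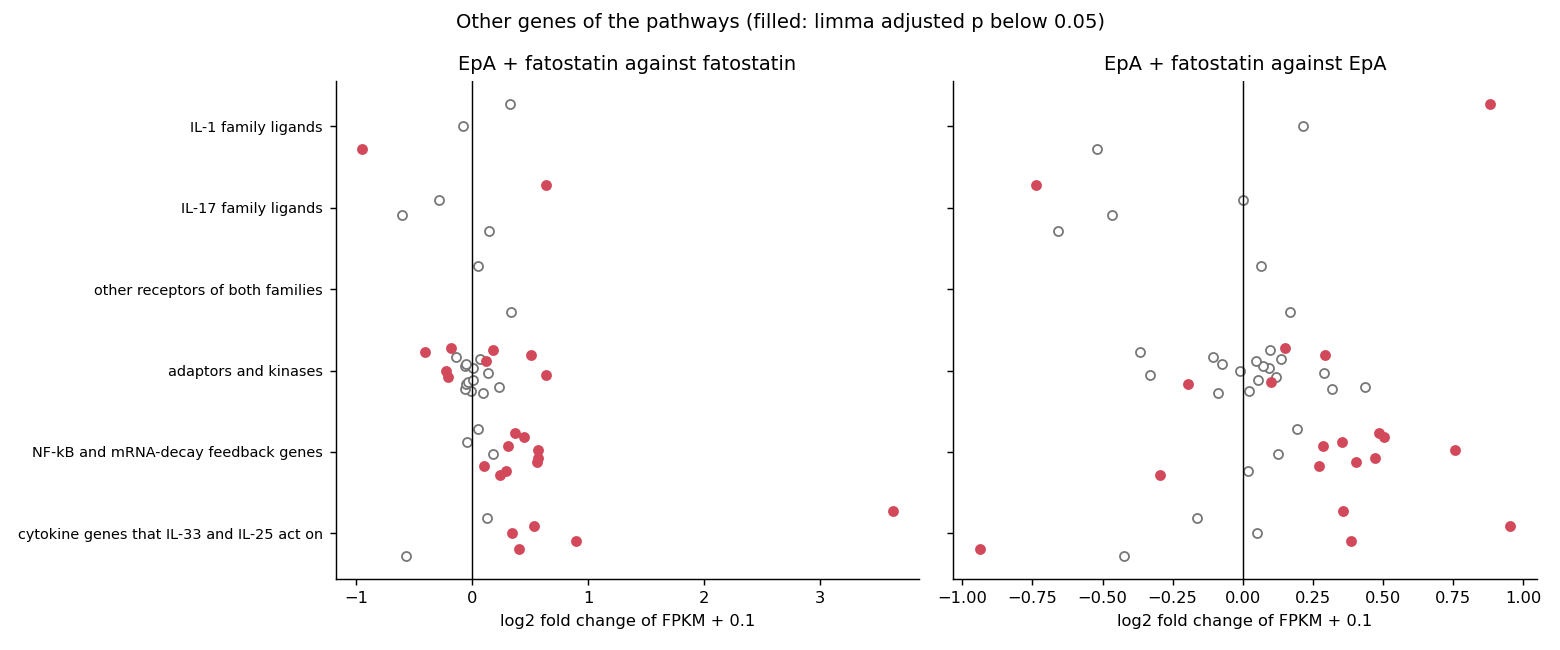
Log2 fold change of FPKM + 0.1 (x axis) of the tested ligands, other receptors, adaptors and kinases, feedback genes, and target cytokines (1 point a gene, filled where the limma adjusted p was below 0.05), for both compounds against fatostatin (left) and against EpA (right). The 9 filled points of the feedback genes on the left lie above 0, and the adaptors and kinases lie on both sides.

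Among the cytokines that IL-33 and IL-25 act on, 5 of 7 tested rose between both compounds and fatostatin and none fell, where 16.2% of all genes rose. *Il9* rose from 66.5 ± 5.22 to 820.6 ± 29.7 FPKM (log2 fold change 3.63, limma adjusted p = 1.72e-11), *Il13* from 11.1 ± 0.581 to 20.8 ± 0.602 FPKM (0.90, limma adjusted p = 2.79e-06), and *Il5* from 1.05 ± 0.0608 to 1.58 ± 0.147 FPKM (0.54, limma adjusted p = 0.0182). With EpA against DMSO, *Il9* rose by 3.55 (limma adjusted p = 2.18e-11), *Il13* by 0.84 (limma adjusted p = 5.17e-06), and *Il6* by 0.84 (limma adjusted p = 0.0437) on 4 to 22 reads per library. With fatostatin, *Il5* rose by 0.67 against DMSO (limma adjusted p = 0.0107) and by 0.95 on top of EpA (limma adjusted p = 0.00121), and *Il13* by 0.33 and 0.39 (limma adjusted p = 0.00737 and 0.00270). *Il10* fell with fatostatin by 1.04 on the log2 scale (limma adjusted p = 2.89e-10) and by 0.94 on top of EpA (limma adjusted p = 1.33e-09). With EpA it was higher without overlap, at 110.1 FPKM with DMSO and 136.5 with EpA. It had 53.7 FPKM with fatostatin and 71.2 with both compounds, also without overlap.

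Over the 12 libraries and 10297 genes compared, the profile most like that of *Il1rn* was that of *Il21*, a cytokine gene (Pearson's r = 0.995), followed by *Il9*, *Hspd1*, *Lta*, and *Tfrc* (r of 0.992 to 0.994). *Il21* had 1.27, 3.28, 1.15, and 4.03 FPKM in the DMSO, EpA, fatostatin, and combined groups. For *Il17rb*, the most alike were *Evl*, *AW112010*, *Rasgrp1*, *Frmpd1*, and *Itgb3* (r of 0.995 to 0.996). *Frmpd1* had 2.27, 0.644, 2.89, and 0.887 FPKM and *Rasgrp1*, an activator of Ras in T cells, 49.7, 28.4, 55.0, and 31.0 FPKM in the same order. The points share their libraries and fall into groups with and without EpA, so these values describe likeness only.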

How the data were processed

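RNA-seq was measured in 12 libraries of Th9 cells, 3 in each of 4 groups taken from the sample titles. Per the paper's methods, the deposited FPKM were made by the authors from reads trimmed with Trim Galore, mapped with HISAT2 (GRCm38), and assigned to genes by featureCounts. The annotation release and the strand setting are not given in the sources used here, so values of genes with an overlapping gene on the opposite strand are uncertain. The authors used DESeq2 on counts, which was not run here because the values are FPKM. The table held 32352 lines for 32051 genes, and the 301 repeat lines had identical values. FPKM was divided by the value of 1 read, from exon lengths of a GENCODE annotation of GRCm38 (32003 genes), and 98.3% to 98.4% of values above 0 in each library came out whole within 0.02 read. Depth was 36019740 to 43656682 reads on genes per library, and counts cover counting error only.

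limma 3.58.1 in R 4.3.3 was fitted to log2(FPKM + 0.1) with 4 group means and an intensity trend, for the 13733 genes averaging at least 0.1 FPKM. Fold changes on this scale understate those of low genes. Tests are two-sided, adjusted by Benjamini-Hochberg over all tested genes, with passing at 0.05 and a further fold threshold of 1.5. With 3 libraries against 3, an exact permutation test of 1 gene cannot give a p below 0.1. The code was tested on simulated data. The members and gene lists were chosen with earlier results of these data known. Named genes were all members, list genes past both thresholds, the 3 largest changes per list among those that passed, the 5 genes of at least 1 FPKM most correlated with *Il1rn* and *Il17rb*, and genes overlapping a member. *Actr8*, *Sigirr*, *Il1rl2*, and the ligands at or near 0 were named to account for their roles. Alternatives changed the pseudocount, minimum, scaling, trend, libraries, replicate block, and test (voom on recovered reads).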

Additional observations from a re-analysis of the deposited data

Results flagged for a closer look

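*Il17rd*, a receptor-like gene of the IL-17 family that was not among the 10 genes described, lay in opposite directions with EpA in the absence and in the presence of fatostatin. It had 18, 18, and 18 reads with DMSO and 16, 14, and 3 reads with EpA, every EpA library being lower. It had 11, 6, and 6 reads with fatostatin and 24, 14, and 14 reads with both compounds, every library with both being higher, 2.27-fold in mean FPKM. The difference between these effects was not tested, since the gene lay under the minimum level.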

How the results depend on the processing

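The number of the 9 tested genes that passed between both compounds and fatostatin was 4. It was 5 without the intensity trend and 5 with voom, and 2 in a fit of those 6 libraries alone. When 1 library was left out it was 2 to 4, with 2 without fatostatin replicate 3. With no minimum, where *Il17re* was fitted as well, it was 3. At a minimum of 1 FPKM, where only *Il1rn*, *Il17ra*, and *Il17rb* were fitted, the number was 3. With fatostatin against DMSO it was 1, and 0 to 1 with 1 library left out. On top of EpA it was 3, and 2 to 3 with 1 library left out. Of the 49 other pathway genes, 16 to 19 passed for EpA against DMSO and 20 to 23 between both compounds and fatostatin with 1 library left out. The difference between the effects of EpA passed for 6 of 13733 genes by limma (1083 at an unadjusted p below 0.05). That number was 10 at a pseudocount of 0.01, 2 in TPM, 0 under median-ratio scaling, 0 with the replicate block, 20 with voom, and 0 to 2 with 1 library left out, and the cause was not tested. Some log2 fold changes near 0 changed sign when 1 library was left out. These were *Il1rn* (-0.048 to 0.079) and *Il18rap* (-0.053 to 0.17) with fatostatin, *Il1r2* (-0.021 to 0.21) and *Il18rap* (-0.071 to 0.19) on top of EpA, and, between EpA and DMSO, *Il1r2* (-0.085 to 0.14), *Il1rap* (-0.10 to 0.038), *Il1rl1* (-0.23 to 0.029), and *Il18r1* (-0.15 to 0.14). The difference between the effects of EpA also changed sign for *Il1r1*, *Il1rl1*, *Il18r1*, and *Il18rap*. A pseudocount of 1 compressed the values between EpA and DMSO of *Il1r1* to 0.18, *Il18rap* to -0.13, and *Il17rb* to -1.20.

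Replicate numbers were shared by the groups, and whether they pair the libraries is not stated. Deviations from the group means of same-numbered libraries correlated with r of -0.0472 to 0.0744 over 18 pairs. Those of differently numbered libraries had r of -0.086 to 0.049 over 36 pairs. Such values cannot show whether same-numbered libraries shared a mouse or culture. With the replicate number as a block, the same number of the 9 genes passed in each comparison, 4, 1, and 3, but between both compounds and fatostatin these were 1 higher and 3 lower, with *Il18rap* in place of *Il1r1*. Depth limits *Il17re* and *Il18rap* most, at 10 to 32 and 26 to 78 reads per library.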
